A study of Mus musculus with 9 samples.

Results

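This report covers 10 marker genes of cancer-associated fibroblasts and myofibroblasts in KLN205 tumors: *Pdgfra*, *Pdgfrb*, *Fap*, *Pdpn*, *Acta2*, *Tagln*, *Postn*, *Fn1*, *Dcn* and *Lum*. They were chosen by name as non-collagen fibroblast markers and are 10 of the 19481 genes listed. KLN205 is a squamous cell carcinoma line of mouse lung, and its cells were grown under the skin of the flank of female DBA/2 mice aged 6 to 8 weeks, an immunocompetent host of the same strain. The injected cells carried a SMARTvector shRNA induced by doxycycline, and bulk polyadenylated RNA was sequenced from 9 tumors, 3 with the non-targeting construct (control), 3 with sh2 Tmprss11b (sh2) and 3 with sh3 Tmprss11b (sh3). These shRNAs, called shRNA1 and shRNA2 in the study, target the membrane serine protease *Tmprss11b*. Doxycycline water was given in all groups, the control included, from a mean tumor volume of 100 mm3 until resection on day 50. The shRNA was in the injected carcinoma cells, whereas the host supplied the stroma.

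Fibroblasts of a carcinoma lay down the collagen-rich matrix around the tumor nests, and part of them turn into myofibroblasts, which build contractile actin bundles under transforming growth factor beta (TGF-beta) and the serum response factor (SRF). *Pdgfra* and *Pdgfrb* encode the receptors through which platelet-derived growth factors (PDGF) recruit and expand fibroblasts and, for *Pdgfrb*, pericytes. No single gene marks every cancer-associated fibroblast, and most of the 10 genes are also used by pericytes, smooth muscle, lymphatic endothelium or carcinoma cells. In bulk RNA, fewer cells of a type and less RNA per cell cannot be told apart, and the cell that made a transcript is not known.

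Each tumor had 20653219 to 24047784 reads assigned to genes. Of these, the 10 genes received between 48 (*Lum* in sh3 replicate 3) and 52445 (*Fn1* in sh3 replicate 1) in each tumor, so that all were counted in every tumor and all 10 were among the 14725 genes tested. The targeted gene, listed under its older symbol *Tmprss11bnl*, had 18, 51 and 42 counts in the control tumors, 7, 2 and 5 in the sh2 tumors and 10, 4 and 5 in the sh3 tumors. Markers of skeletal muscle stood far apart in control replicate 3 and sh3 replicate 1, and markers of adipocytes differed between the groups; these values are given with *Dcn* and *Lum*.

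None of the 10 genes passed the threshold in any comparison, an FDR (P value adjusted over all genes tested) under 0.05 in edgeR's quasi-likelihood test. The lowest FDR among them was 0.999 with sh2, 0.753 with sh3, 0.982 for the mean of sh2 and sh3 against the control and 0.673 for sh3 against sh2. No gene of the whole table passed either, so the background was 0% in each of the 4 comparisons, with 518, 976, 602 and 1057 genes at an unadjusted P under 0.05. DESeq2's Wald test called 2, 41, 9 and 46 genes, none of them among the 10. The differences given below were thus not separated by this test from the spread between tumors.

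With sh3, all 10 genes had a mean below the control, with a median log2 fold change of −0.54, whereas the median of all genes tested was 0.03 and 45.1% of them had a negative value. *Pdgfrb*, *Postn* and *Lum* were lower at an unadjusted P under 0.05, which 3.13% of all genes were. With sh2, 7 of the 10 were below the control and none was lower at an unadjusted P under 0.05, against 1.87% of all genes, and the median was −0.09 (0.01 for all genes, of which 48.2% were negative). For the mean of sh2 and sh3 against the control, 9 of the 10 were below the control with a median of −0.40, and *Lum* was the only one with an unadjusted P under 0.05, against a background of 2.74%. The comparisons share the 3 control tumors, so their values are not independent. The median with sh2 depended on single tumors, being 0.01 without sh2 replicate 2 and −0.19 without sh2 replicate 1. That with sh3 was −0.85 without sh3 replicate 2.

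**Figure D1:**
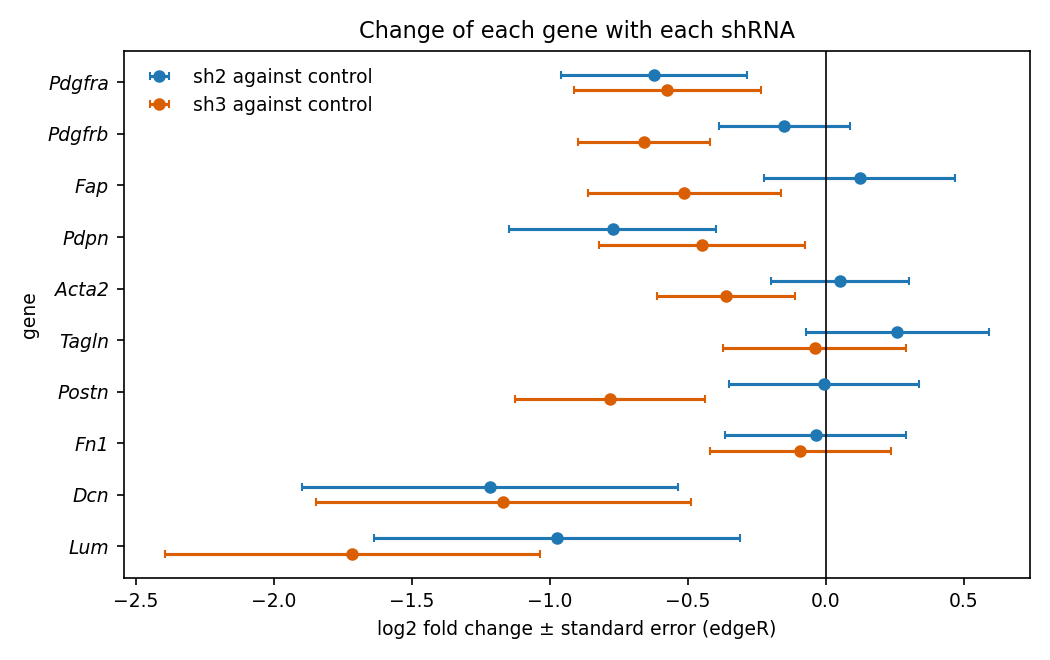
Log2 fold change against the control tumors (x axis, edgeR, bars are the standard error) for each of the 10 genes (y axis), with sh2 in blue and sh3 in orange. The most negative values are those of *Lum* and *Dcn*, from −0.97 to −1.72, and the sh3 values of all 10 genes lie below 0, none with an FDR under 0.05.

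Levels were compared between genes in TPM, a deposited value that corrects for both gene length and library total. The highest median over the 9 tumors was that of *Fn1* (fibronectin) at 429 TPM, followed by *Postn* (periostin) at 279 TPM. The contractile genes came next, *Acta2* (smooth muscle actin) at 129.7 TPM and *Tagln* (transgelin, an actin-binding protein) at 113 TPM. *Pdgfrb* at 52.4 TPM and *Dcn* (decorin) at 49.5 TPM stood in the middle. *Lum* (lumican) at 18.5 TPM, *Pdgfra* at 15.9 TPM, *Fap* (fibroblast activation protein) at 14.7 TPM and *Pdpn* (podoplanin) at 13.2 TPM were the lowest. Within tumors, *Postn* exceeded *Acta2*, *Tagln* exceeded *Pdgfrb* and *Dcn* exceeded *Lum* in 9 of 9 tumors. The other neighbours in this order changed places between tumors: the first of each pair was the higher in 6 of 9 tumors for *Fn1* and *Postn*, *Acta2* and *Tagln*, *Lum* and *Pdgfra*, and *Fap* and *Pdpn*, in 5 of 9 for *Pdgfrb* and *Dcn*, and in 4 of 9 for *Pdgfra* and *Fap*. *Pdgfrb* was above *Pdgfra* in 9 of 9 tumors, by 2.39 to 5.28 times.

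**Figure D2:**
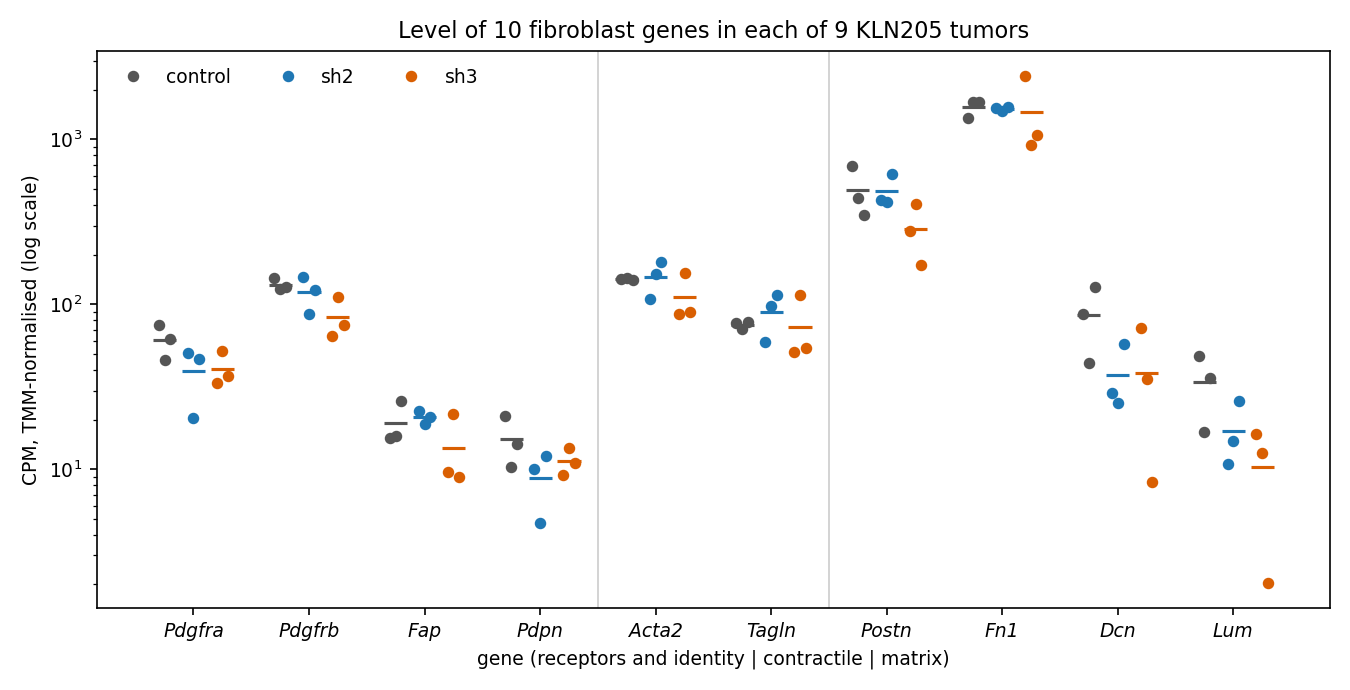
Level of each gene (x axis, in the order receptors and identity genes, contractile genes, matrix genes) in CPM on a log scale (y axis), with 1 point per tumor and a bar at the mean of the 3 tumors of a group. The control tumors of *Acta2* lie together between 139.7 and 144 CPM, while *Dcn* and *Lum* spread over more than any other gene shown and reach their lowest points, 8.34 and 2.05 CPM, in the same sh3 tumor.

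Among the receptors and identity genes, *Pdgfrb* was the one whose sh3 tumors did not overlap the controls. It was at 144, 124 and 127 CPM (counts scaled to the library total and normalized by edgeR's TMM method, here and below in the order of replicates 1, 2 and 3) in the controls, 146, 87.3 and 123 CPM with sh2 and 64.2, 111 and 75.4 CPM with sh3. All 3 sh3 tumors were thus below all 3 control tumors, while the sh2 tumors lay on both sides. The means were 132 ± 11.1 CPM (SD, n = 3 tumors, as for all means below), 119 ± 29.4 CPM and 83.5 ± 24.3 CPM. Against the control, the log2 fold change was −0.66 with sh3 (standard error 0.24, unadjusted P = 0.0215, FDR = 0.753 in edgeR) and −0.15 with sh2 (standard error 0.24). Exact permutation of the tumors, two-sided, gave P = 0.1 for sh3, the smallest that 3 tumors against 3 allow. Groups that do not overlap always have this value, so it adds nothing to their separation. Such a separation below the control was found for *Pdgfrb* and *Lum* among the 10 genes, and for 5.44% of all genes tested.

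*Pdgfra*, which marks most tissue fibroblasts, stood at 75.1, 45.7 and 61.2 CPM in the controls, 50.8, 20.6 and 46.7 CPM with sh2 and 33.5, 52.2 and 36.6 CPM with sh3. The highest level was in control replicate 1 and the lowest in sh2 replicate 2, and both shRNA groups overlapped the controls. Its log2 fold changes were −0.62 with sh2 (standard error 0.34) and −0.57 with sh3 (standard error 0.34). Without sh2 replicate 2 the value with sh2 was −0.31.

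*Pdpn*, a mucin-like membrane glycoprotein of activated fibroblasts that lymphatic endothelium and some squamous carcinoma cells also carry, followed the same order of tumors at its ends. It was at 21.1, 10.3 and 14.2 CPM in the controls, 10.0, 4.69 and 12.0 CPM with sh2 and 9.20, 13.4 and 10.9 CPM with sh3. Control replicate 1 was again the highest and sh2 replicate 2 again the lowest. The log2 fold change was −0.77 with sh2 (standard error 0.38) and −0.45 with sh3 (standard error 0.37), and without control replicate 1 these were −0.46 and −0.15.

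*Fap*, a cell-surface serine protease of activated fibroblasts, was at 15.5, 15.9 and 25.8 CPM in the controls, 22.7, 18.8 and 20.8 CPM with sh2 and 9.66, 21.5 and 8.94 CPM with sh3. The sh2 tumors lay within the range of the controls, and the sh3 tumors were split, with replicates 1 and 3 below every other tumor and replicate 2 above 2 of the controls. The log2 fold change of 0.12 with sh2 (standard error 0.35) was −0.0028 without control replicate 1 and 0.40 without control replicate 3. That of −0.51 with sh3 (standard error 0.35) was −1.04 without sh3 replicate 2 and −0.26 without control replicate 3.

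The 2 contractile genes had the most even control tumors and no common direction with the shRNAs. *Acta2* was at 143, 144 and 139.7 CPM in the controls, 107, 154 and 181 CPM with sh2 and 87.9, 154 and 90.4 CPM with sh3. The SD was 2.30 CPM among the controls, 37.1 CPM with sh2 and 37.4 CPM with sh3, and tumors of both shRNA groups lay above and below the controls. Its log2 fold change was 0.05 with sh2 (standard error 0.25) and −0.36 with sh3 (standard error 0.25). The latter was −0.67 without sh3 replicate 2 and −0.22 without sh3 replicate 1.

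*Tagln* was at 77.1, 70.7 and 78.1 CPM in the controls, 59.0, 97.7 and 113 CPM with sh2 and 51.3, 114 and 54.0 CPM with sh3. As for *Acta2*, the lowest tumors were sh3 replicates 1 and 3 and the highest sh2 replicate 3 and sh3 replicate 2. The log2 fold change was 0.26 with sh2 (standard error 0.33) and −0.04 with sh3 (standard error 0.33), the latter 0.16 without sh3 replicate 1 and −0.52 without sh3 replicate 2. The value with sh2 was 0.06 without sh2 replicate 3 and 0.48 without sh2 replicate 1. *Acta2* shares long stretches with the other actin genes, among them *Acta1* of skeletal muscle, so reads could be split between them. In control replicate 3, where *Acta1* reached 1127 CPM, *Acta2* was the lowest of the controls in CPM. In TPM it was the highest of them, at 134.2 TPM against 129.7 and 131.7 TPM in replicates 1 and 2. Whether reads were split was not tested.

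The promoter of *Acta2* is shown because SRF acts on contractile genes through the CArG box, CC and GG with 6 bases of A or T between them. RefSeq sequences of 250 bases before to 50 bases after an annotated start were at hand for 4 of the 10 genes (*Acta2*, *Pdgfra*, *Pdpn* and *Postn*), out of 32851 such sequences in all. The window of *Acta2* is chr19:34255324-34255623 (GRCm38.p6, minus strand), read 5′ to 3′, and capitals mark the matches:
Acta2: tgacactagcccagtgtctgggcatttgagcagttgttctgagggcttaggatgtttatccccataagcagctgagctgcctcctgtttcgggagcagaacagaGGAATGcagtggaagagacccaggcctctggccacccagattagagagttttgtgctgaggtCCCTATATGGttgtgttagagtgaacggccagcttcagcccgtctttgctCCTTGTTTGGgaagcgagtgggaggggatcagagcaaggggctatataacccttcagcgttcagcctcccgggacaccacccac
No exact CArG box was found in it on either strand, and 1.63% of all promoters held one. When 1 of the 6 middle bases could be C or G, a looser form chosen after the exact search, there were 2 matches, CCCTATATGG from 84 bases and CCTTGTTTGG from 34 bases before the start, and 9.98% of all promoters held at least 1. The remaining capitals, GGAATG from 146 bases before the start, are the reverse strand of CATTCC, the core of the MCAT motif, which 14.7% of promoters held; it overlaps neither of the others. A match of letters does not show that a factor binds there.

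*Postn* was the second most abundant of the 10 genes and one of those with the lowest unadjusted P with sh3. Periostin is a secreted matricellular protein that promotes the cross-linking of collagen and binds integrins. *Postn* was at 687, 441 and 348 CPM in the controls, 430.5, 419 and 618 CPM with sh2 and 277, 407 and 173 CPM with sh3. The sh2 tumors fell within the range of the controls, 2 of the 3 sh3 tumors were below every control, and all sh3 tumors were below all sh2 tumors, a separation found for 4.62% of all genes and here for *Postn* alone. In the fit, the log2 fold change was −0.78 with sh3 (standard error 0.35, unadjusted P = 0.0498, FDR = 0.753 in edgeR), −0.01 with sh2 (standard error 0.34) and −0.77 for sh3 against sh2 (standard error 0.35, FDR = 0.673 in edgeR). Without control replicate 1, the tumor with the highest level, the values were −0.48 with sh3 and 0.31 with sh2.

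The annotation gives *Postn* 2 starts, and the one at chr3:54360857-54361156 (GRCm38.p6, plus strand) is shown for its TATAAA, in capitals, 26 bases before the start:
Postn: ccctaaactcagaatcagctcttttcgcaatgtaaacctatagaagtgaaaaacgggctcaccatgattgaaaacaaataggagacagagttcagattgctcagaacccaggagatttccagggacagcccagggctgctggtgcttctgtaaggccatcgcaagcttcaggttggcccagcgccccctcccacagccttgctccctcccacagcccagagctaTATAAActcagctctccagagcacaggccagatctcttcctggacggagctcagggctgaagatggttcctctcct
TATAAA on either strand occurred in 13.6% of all promoters. The window of the other start held no match to the exact CArG box, to TATAAA, to the MCAT core or to TGANTCA, the motif of the AP-1 factors, which 7.81% of all promoters held.

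*Fn1*, which encodes the fibronectin on which fibroblasts assemble their matrix and which many carcinoma cells also make, was at 1344, 1688 and 1692 CPM in the controls, 1556, 1479 and 1567 CPM with sh2 and 2425, 931 and 1072 CPM with sh3. The 3 sh2 tumors lay within the controls, whereas sh3 held both the highest and the lowest tumors of the study. The mean was 1574 ± 199.6 CPM in the controls, 1534 ± 47.9 CPM with sh2 and 1476 ± 825 CPM with sh3. The log2 fold change of −0.09 with sh3 (standard error 0.33) was −0.65 without sh3 replicate 1 and 0.15 without sh3 replicate 2, and that with sh2 was −0.04 (standard error 0.33).

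*Dcn* and *Lum* had the most negative fold changes and the widest spread. Both encode small leucine-rich proteoglycans that coat collagen fibrils and set their diameter and spacing. The 2 genes are neighbours on chromosome 10 (GRCm38.p6), *Dcn* at 97479500 to 97518163 and *Lum* at 97565501 to 97572703, with no other annotated gene between them and their nearest ends 47.3 kb apart.

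*Dcn* was at 87.6, 43.9 and 127 CPM in the controls, 29.0, 25.3 and 57.1 CPM with sh2 and 71.6, 35.2 and 8.34 CPM with sh3. The groups overlapped only through control replicate 2, which was below sh2 replicate 3 and sh3 replicate 1. The means were 86.3 ± 41.8 CPM, 37.1 ± 17.4 CPM and 38.4 ± 31.8 CPM. The log2 fold change was −1.22 with sh2 (standard error 0.68, unadjusted P = 0.108) and −1.17 with sh3 (standard error 0.68, unadjusted P = 0.12), and edgeR's FDR was 0.999 and 0.771. With sh3 the value was −0.71 without sh3 replicate 3 and −1.99 without sh3 replicate 1.

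*Lum* was at 48.8, 16.8 and 35.7 CPM in the controls, 10.8, 14.9 and 25.8 CPM with sh2 and 16.3, 12.4 and 2.05 CPM with sh3. All 3 sh3 tumors were below all 3 controls, although sh3 replicate 1 (16.3 CPM) was close to control replicate 2 (16.8 CPM), and sh2 replicate 3 was above that control. The means were 33.7 ± 16.1 CPM, 17.2 ± 7.77 CPM and 10.3 ± 7.38 CPM. Relative to the control, its log2 fold change was −1.72 with sh3 (standard error 0.68, unadjusted P = 0.0322, FDR = 0.753 in edgeR), −0.97 with sh2 (standard error 0.66) and −1.35 for the mean of sh2 and sh3 (standard error 0.55, unadjusted P = 0.0371, FDR = 0.982 in edgeR). Without control replicate 1 the value with sh2 was −0.61. By exact permutation, two-sided, the log2 level of *Lum* had P = 0.1 for sh3, again the smallest possible and again fixed by the separation. None of the 10 genes was below every control in all 6 shRNA tumors, which 0.958% of all genes were, and none in all sh2 tumors, which 5.83% were.

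Markers of fat and of skeletal muscle differed widely between tumors. The sum of 6 adipocyte markers (*Fabp4*, *Cfd*, *Cidec*, *Adipoq*, *Plin1* and *Lep*) was 40.3, 88.3 and 67.1 CPM in the controls, 9.23, 8.55 and 65.4 CPM with sh2 and 20.5, 19.2 and 8.56 CPM with sh3. It was thus high in the controls and in sh2 replicate 3, the sh2 tumor with the most *Dcn* and *Lum*, and low elsewhere. Control replicate 2 had the highest sum of all tumors but the least *Dcn* and *Lum* of the controls, 43.9 and 16.8 CPM. *Plin1*, which coats the fat droplet, had no count in sh2 replicates 1 and 2 and sh3 replicates 2 and 3, and *Adipoq*, the adipocyte hormone adiponectin, had none in sh2 replicate 2 and sh3 replicate 3 (both named after their values were seen). The most abundant of the list were *Fabp4*, a fatty acid carrier also made by macrophages and endothelium, and *Cfd* (adipsin), which was at 26.5 ± 10.7 CPM in the controls, 9.95 ± 16.6 CPM with sh2 and 1.71 ± 1.72 CPM with sh3. Of the 5 adipocyte markers tested, all were below the control with each shRNA. At an unadjusted P under 0.05, 4 were lower with sh3, against 3.13% of all genes.

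At an unadjusted P under 0.05, 5 of 6 skeletal muscle markers (*Acta1*, *Myh4*, *Ckm*, *Tnnt3*, *Mylpf* and *Mb*) were lower with sh2, against 1.87% of all genes. None of the 6 was at 0 in any tumor. Their sum was 309, 16.2 and 2718 CPM in the controls, 104, 32.7 and 3.67 CPM with sh2 and 896, 82.0 and 147 CPM with sh3. Control replicate 3 and sh3 replicate 1 were the 2 highest, and they were also the tumors with the highest *Dcn* of their groups, whereas the sh2 tumor with the most *Dcn*, replicate 3, had the lowest sum of all. Replicate 1 of sh3 also had the most *Lum* of its group, so leaving it out by itself lowers the sh3 means of *Dcn* and *Lum*. Without control replicate 3 and sh3 replicate 1, a choice made after seeing the data, 2 tumors were left in each of these groups. The log2 fold change with sh3 was then −1.60 for *Dcn*, −2.18 for *Lum*, −0.96 for *Postn*, −0.53 for *Pdgfrb* and −0.60 for *Fn1*, all with an FDR above 0.5 in edgeR. In the same fit the value of *Fap* was −0.05 with sh3, and those of *Dcn* and *Lum* with sh2 were −0.82 and −0.93. The part of adipose tissue and of skeletal muscle in the lower *Dcn* and *Lum* was not tested.

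**Figure D3:**
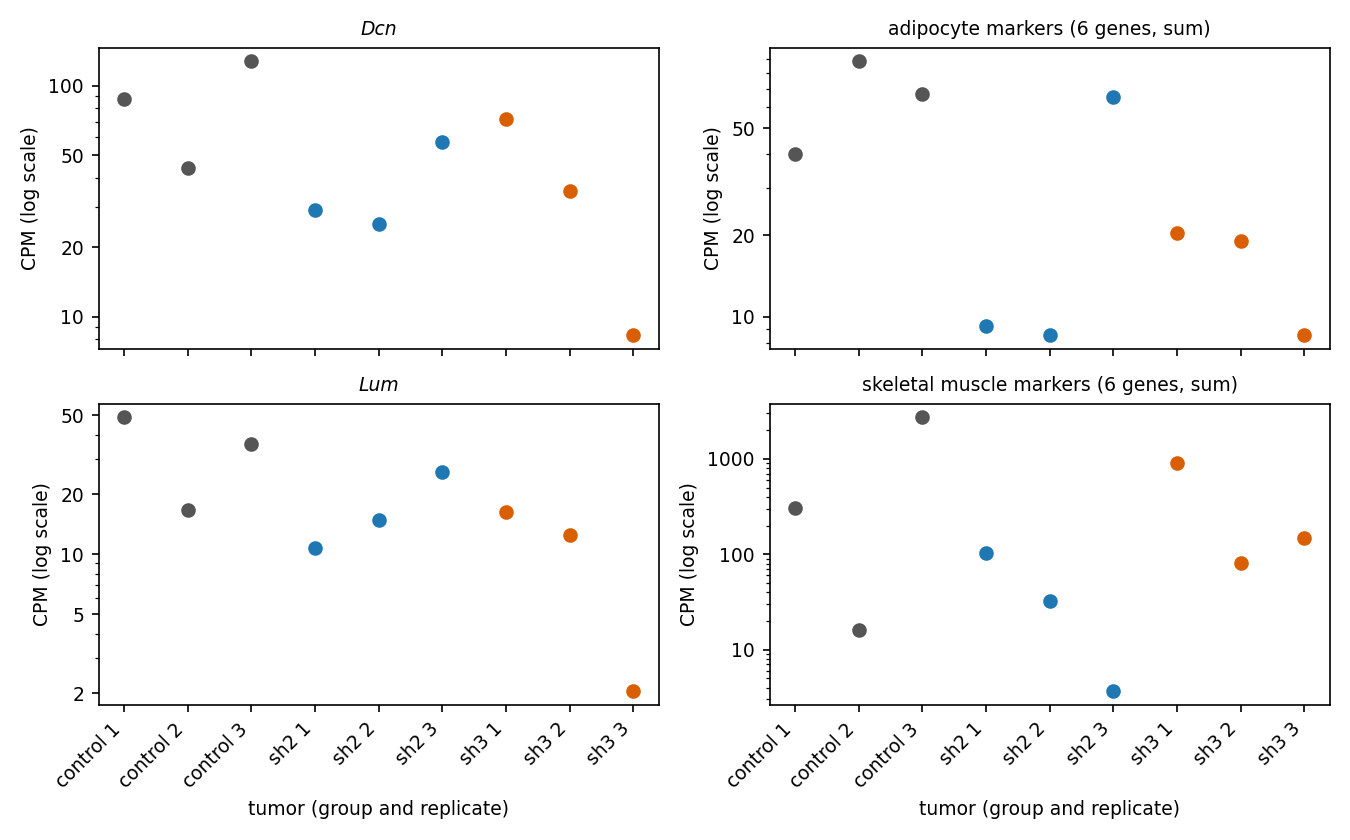
Level in CPM on a log scale (y axes) of *Dcn* and *Lum* (left panels) and summed CPM of 6 adipocyte markers and 6 skeletal muscle markers (right panels) in each tumor (x axis), with control in grey, sh2 in blue and sh3 in orange. Adipocyte markers sum to 40.3 CPM or more in the 3 control tumors and sh2 replicate 3 and to 20.5 CPM or less in the other 5 tumors, and muscle markers peak at 2718 CPM in control replicate 3 and 896 CPM in sh3 replicate 1.

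Seen tumor by tumor, control replicate 1 had the highest level of 4 genes (*Pdgfra*, *Pdpn*, *Postn* and *Lum*) and sh3 replicate 3 the lowest level of 4 (*Fap*, *Postn*, *Dcn* and *Lum*). Replicate 1 of sh3 was lowest for *Pdgfrb*, *Acta2* and *Tagln* and highest for *Fn1*. Replicate 2 of sh3 was highest for *Tagln* and lowest for *Fn1*, and it had more of the receptors, of *Fap* and of the contractile genes than the other sh3 tumors. The ratio of the highest to the lowest tumor ran from 2.06 for *Acta2* to 15.3 for *Dcn* and 23.8 for *Lum*. Control replicate 2 was neither the highest nor the lowest tumor for any of the 10 genes.

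**Figure D4:**
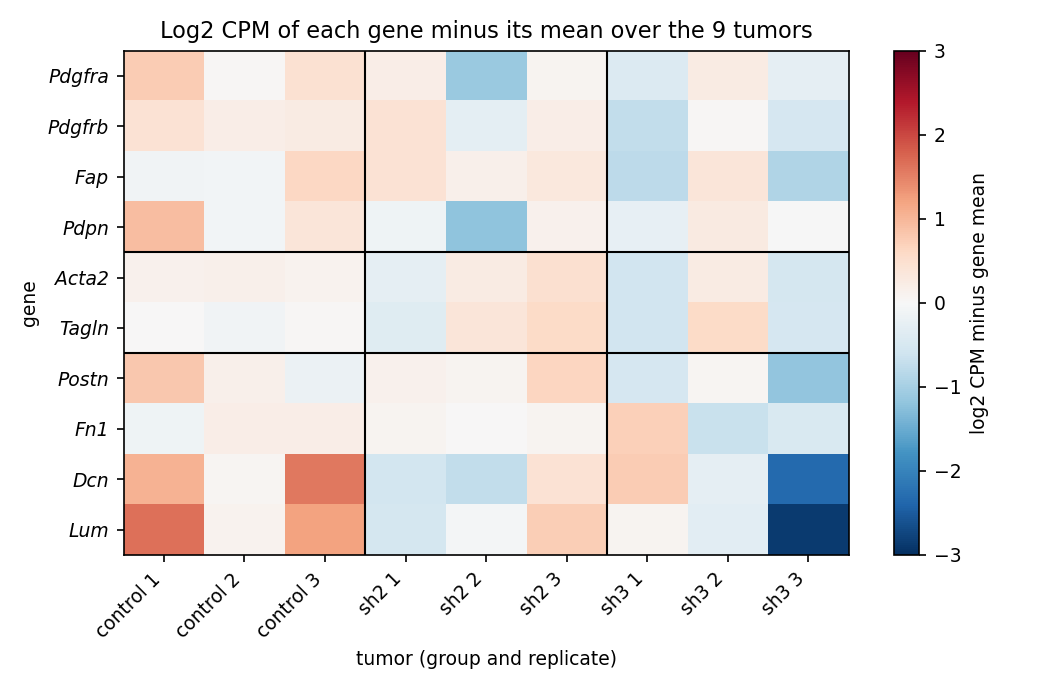
Log2 CPM of each gene (rows) in each tumor (columns) minus the mean of that gene over the 9 tumors, from blue (lower) to red (higher), with black lines between groups and between receptor, contractile and matrix genes. The darkest cells are *Dcn* and *Lum* in sh3 replicate 3, and the sh3 tumors differ from each other in which genes are low.

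Over the 9 tumors the 10 genes did not vary as one. Of their 45 pairs, 3 had a Pearson correlation of log2 CPM above 0.9: *Pdgfra* with *Pdpn* (r = 0.95, Spearman's rho = 0.88), *Dcn* with *Lum* (r = 0.93, rho = 0.88) and *Acta2* with *Tagln* (r = 0.92, rho = 0.92). These are descriptions over 9 tumors, in which both genes of a pair are read from the same libraries and share the group differences. After the mean of each group was removed, the values of r were 0.95, 0.93 and 0.99. Without the 2 tumors farthest from the median of the first gene, r was 0.76, 0.79 and 0.87. By contrast, *Postn* and *Lum* (r = 0.80) came to 0.07 without 2 tumors, and *Pdgfrb* and *Fap* (r = 0.75) to 0.01. Other pairs rose, *Pdgfra* and *Pdgfrb* (r = 0.73) to 0.87 and *Pdgfra* and *Fap* (r = 0.34) to 0.95. The 3 pairs named first were thus not the only ones with a high r without 2 tumors.

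**Figure D5:**
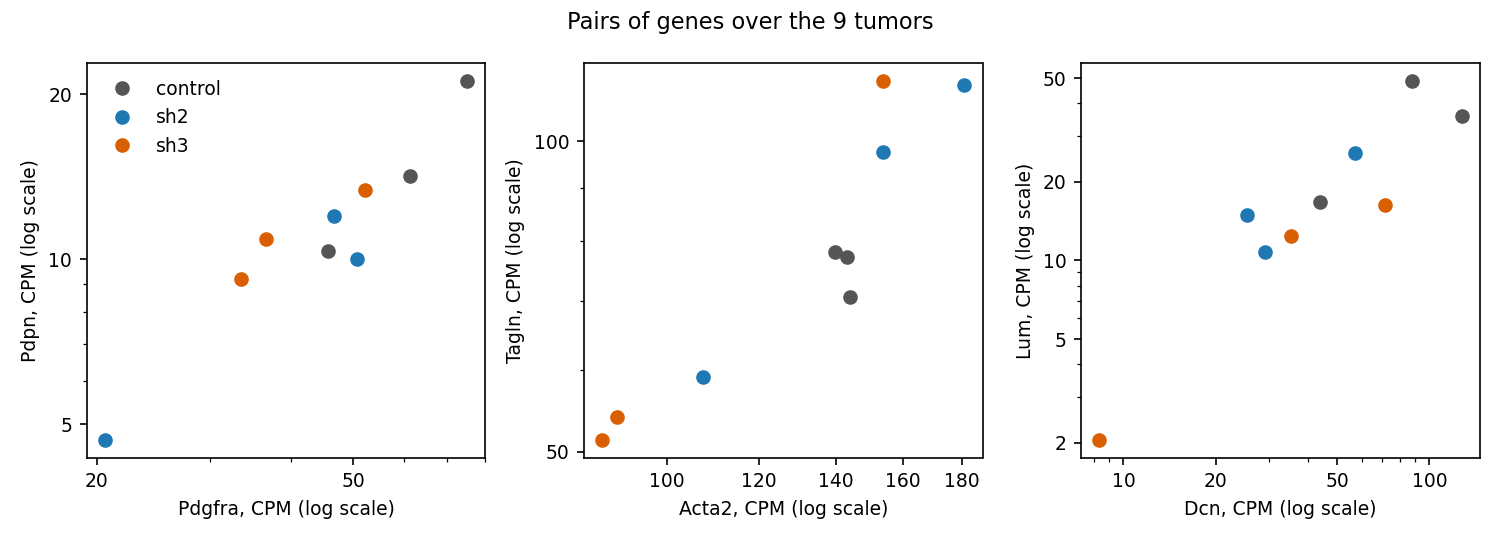
Level in CPM on log scales of *Pdgfra* and *Pdpn* (left), *Acta2* and *Tagln* (middle) and *Dcn* and *Lum* (right), with 1 point per tumor in grey (control), blue (sh2) or orange (sh3). The lowest point is sh2 replicate 2 in the left panel, sh3 replicate 1 in the middle and sh3 replicate 3 on the right.

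The promoters of *Pdgfra* and *Pdpn*, the pair with the highest correlation, are shown side by side. That of *Pdgfra* is chr5:75152001-75152300 on the plus strand and that of *Pdpn* chr4:143299515-143299814 on the minus strand (GRCm38.p6). Neither held an exact or looser CArG box, a TATAAA, an MCAT core or an AP-1 motif on either strand, so no letters are in capitals:
Pdgfra: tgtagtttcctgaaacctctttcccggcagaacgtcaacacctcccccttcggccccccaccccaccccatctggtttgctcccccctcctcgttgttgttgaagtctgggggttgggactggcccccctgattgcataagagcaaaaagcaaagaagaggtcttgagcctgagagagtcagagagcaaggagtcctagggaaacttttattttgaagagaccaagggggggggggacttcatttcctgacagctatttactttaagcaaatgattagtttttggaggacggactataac
Pdpn: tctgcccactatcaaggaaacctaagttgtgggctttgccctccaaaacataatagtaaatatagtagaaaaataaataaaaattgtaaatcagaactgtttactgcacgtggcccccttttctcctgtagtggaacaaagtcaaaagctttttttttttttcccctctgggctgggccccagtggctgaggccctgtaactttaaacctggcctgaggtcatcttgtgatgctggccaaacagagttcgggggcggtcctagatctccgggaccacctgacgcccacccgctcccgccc

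Among all 14725 genes, those whose log2 CPM followed a member most closely over the 9 tumors were the following, with r between 0.95 and 0.98. *Ace*, the angiotensin-converting enzyme, was among the 2 closest genes of both *Dcn* and *Lum*, joined by *Gfra2* for *Dcn* and *Meg3* for *Lum*. *Postn* was followed by *Slc22a17* and *Fkbp10*, a collagen chaperone of the endoplasmic reticulum, and *Fn1* by *Zkscan17* and *Fam171a1*. *Pdgfra* was followed by *Tbc1d2b* and *Mks1*, *Pdgfrb* by *Cacna1c*, a calcium channel subunit of muscle cells, and *Cped1*, *Fap* by *Sparcl1* and *Sft2d3*, and *Pdpn* by *Abi3bp* and *Bai2*. For *Acta2* they were *Grasp* and *Syngr1*, and for *Tagln* *Fam221a* and *Bmp2*, a ligand of the TGF-beta superfamily. These are the highest of 14725 coefficients over 9 tumors and carry no test.

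Other genes of fibroblasts and their matrix mostly lay below the control too, again without a gene past the threshold. Of 26 other fibroblast and matrix genes, 24 had a negative log2 fold change with sh3 (median −0.74) and 10 an unadjusted P under 0.05, all lower. With sh2, 23 were negative (median −0.36) and 1 had an unadjusted P under 0.05. The most abundant were *Sparc*, a collagen-binding glycoprotein, at −0.67 with sh3 (log2 fold change, standard error 0.26), and *Bgn* (biglycan, a proteoglycan of the same family as decorin), with −0.72 (standard error 0.26). All 10 collagen genes were below the control with sh3 (median −1.14), and 9 of them had an unadjusted P under 0.05, with a lowest FDR of 0.753 in edgeR. Of all genes tested, 3.13% were lower at this P with sh3 and 1.87% with sh2, the background of these counts and of those of the lists below. The genes of a list are read from the same tumors, so such counts are not independent. The 2 most abundant collagen genes, *Col1a2* and *Col1a1*, had −1.27 (standard error 0.27) and −1.25 (standard error 0.29) with sh3, and −0.30 and −0.38 with sh2.

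Other contractile genes lay on both sides of the control. Of 13, 9 were below the control with sh3 (median −0.20) and 7 with sh2 (median −0.17), with 1 and 2 at an unadjusted P under 0.05, all lower. Tropomyosin *Tpm1* had −0.29 (standard error 0.22) and *Tagln2* 0.09 (standard error 0.15) with sh3. Among 16 regulators of the TGF-beta and SRF pathways, 15 were tested, the median was −0.03 with sh3 and 0.00 with sh2, and 2 had an unadjusted P under 0.05 with sh3, both lower. The TGF-beta receptor *Tgfbr2* had −0.44 (standard error 0.22) and the TGF-beta target *Ctgf* −0.03 (standard error 0.34) with sh3. Of the 4 PDGF ligands, 2 were above and 2 below the control with each shRNA. *Pdgfa* was at 46.1 ± 5.08 CPM in the controls, 75.4 ± 39.8 CPM with sh2 and 50.2 ± 21.2 CPM with sh3, and *Pdgfb* at 52.0 ± 4.77, 51.1 ± 5.88 and 61.0 ± 23.6 CPM.

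Inflammatory and antigen-presenting fibroblast genes did not share a direction. Of 10 inflammatory genes tested out of 11, 8 were below the control with sh2 (median −0.32) and 6 with sh3 (median −0.22). At an unadjusted P under 0.05, 2 of the 10 were lower with sh2 and 0 with sh3. The most abundant, *Ly6c1* and complement *C3*, which leukocytes and other cells also use, had 0.31 and −0.65 with sh2 and 0.13 and 0.31 with sh3. The 7 antigen-presenting genes had a median of −0.69 with sh2 and 0.46 with sh3. The summed level was 7528, 6723 and 7621 CPM in the controls and 6357, 2324 and 5232 CPM with sh2. It was 2842, 12874 and 11874 CPM with sh3, below every control in replicate 1 and above every control in replicates 2 and 3. The leading antigen-presenting genes *Cd74* and *H2-Aa*, of the class II presentation pathway, are used chiefly by macrophages, dendritic cells and B cells.

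Other cell types that use the 10 genes were counted in the same way. Of 9 pericyte and vascular smooth muscle markers, 2 of which (*Des* and *Myh11*) are also among the contractile genes, 8 were below the control with sh3 (median −0.46) and 3 had an unadjusted P under 0.05, while 3 were below it with sh2 (median 0.06). *Mcam* had −0.07 (standard error 0.14) and the pericyte receptor *Notch3* −0.91 (standard error 0.25) with sh3. Their summed level was 287, 265 and 443 CPM in the controls, 255 to 297 CPM with sh2 and 195 to 277 CPM with sh3. None of the 9 was at 0. The tumor at 443 CPM, control replicate 3, was also the highest in skeletal muscle markers. All 10 endothelial markers were below the control with sh3 (median −0.23, *Pecam1* −0.26, *Eng* −0.21, 2 with an unadjusted P under 0.05), and 7 with sh2 (median −0.09). The 4 lymphatic markers, which bear on *Pdpn*, summed to 31.0 to 56.6 CPM in the controls, 15.9 to 31.6 CPM with sh2 and 25.9 to 34.9 CPM with sh3, mostly from *Flt4*, and *Lyve1* was at 3.94 ± 4.64 CPM in the controls. All 3 lymphatic markers tested were below the control with sh2 (median −1.57) and with sh3 (median −0.71). At an unadjusted P under 0.05, 0 were lower with sh2 and 1 with sh3. Some rest on few counts, *Ccl21a* having 1 in control replicate 2 and 166 in control replicate 3. The part of pericytes and of lymphatic vessels in the values of *Pdgfrb* and *Pdpn* was not tested.

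Macrophage markers (5 of 6 listed, led by *C1qa* and *Csf1r*) had a median of −0.21 with sh2 and 0.08 with sh3. Their summed level was 1434 to 1495 CPM in the controls, 906 to 1390 CPM with sh2 and 649, 2721 and 1692 CPM with sh3. The 7 epithelial markers of the carcinoma cells had a median of 0.38 with sh2 and −0.13 with sh3. Of the 7, 3 were below the control with sh2 and 5 with sh3, with lowest values of −3.52 and −7.51. At an unadjusted P under 0.05, 0 were lower with sh2 and 1 with sh3. The leading genes of this list, the keratins *Krt8* and *Krt18*, had 0.40 and 0.45 with sh2 and −0.13 and −0.01 with sh3. The summed level of the epithelial markers was 2364 to 3575 CPM in the controls, 2680.1 to 5162 CPM with sh2 and 2786 to 3079.9 CPM with sh3. It was highest in sh2 replicate 2, the tumor lowest for *Pdgfra* and *Pdpn*, and whether the share of carcinoma cells moved these values was not tested.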

How the data were processed

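Per the labels and the study's methods, RNA of 9 tumors was made into stranded polyadenylated libraries, checked with FastQC, aligned with STAR 2.5.3a to mm10 and counted with featureCounts. The authors deposited raw counts for 19481 genes, a normalized signal (CPM scaled by TMM, used here only as a check) and TPM, used for levels between genes. A further 10 columns hold the authors' own edgeR comparisons and were not used. The annotation, the strand setting and the treatment of reads with several matches are not given in the sources used here. Counts were fitted in edgeR 4.0.16 (R 4.3.3) with all 9 tumors, 1 coefficient per group, filterByExpr (14725 genes kept), TMM and robust quasi-likelihood tests, with Benjamini-Hochberg adjustment over all genes tested. Standard errors follow from the log2 fold change and its F statistic. Log2 CPM used a prior count of 2. Total counts set the precision: 3 counts correspond to 0.125 to 0.145 CPM, for counting error only. The labels call the tumors biological replicates. Same-numbered tumors did not deviate together (mean correlation −0.10), so the number was not a block. The fit was tested on simulated data.

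The members and the gene lists were chosen with earlier results of these data known. Named were every member, the 2 most abundant genes of each list, any list gene past the threshold, and the 2 genes most like each member; exceptions are marked. Of the markers listed, *Adgre1* was not analysed here. Alternatives were DESeq2 1.42.0 (Wald test, size factors), the edgeR likelihood ratio test, other filters, only the groups compared, the replicate block and each tumor left out. Promoters are RefSeq sequences of GRCm38.p6. Python 3.11.15 (pandas 2.3.3, matplotlib 3.10.9) was used for summaries and figures.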

Additional observations from a re-analysis of the deposited data

How the results depend on the processing

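With 3 tumors a group and a spread between tumors that reached a factor of 8.59 within sh3 for *Dcn*, only large differences could pass, and none of the 10 genes had an FDR under 0.05 in any comparison under any alternative run, the lowest value being 0.166 (sh3 against sh2, with 1 tumor left out). Over all genes, DESeq2's Wald test called 2 genes with sh2, 41 with sh3, 9 for the mean of both and 46 for sh3 against sh2. The edgeR likelihood ratio test called 8 with sh3, 8 for the mean of both and 14 for sh3 against sh2. These counts were 0 in the quasi-likelihood test, and the cause was not tested. The fit with only the groups compared gives no value for the mean of both, which needs all 3 groups.

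For sh3 against sh2, the median over the 10 genes was between −0.75 (without sh3 replicate 2) and −0.19 (without sh2 replicate 3) on the log2 scale when single tumors were left out, against −0.36 with all. This median kept its sign with sh3, from −0.85 to −0.45, and for the mean of both, from −0.55 to −0.32, whereas with sh2 it ranged from −0.19 to 0.01.

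Of 500 values of single genes under the alternatives, 20 had the opposite sign, all of them values of at most 0.20 in size with all tumors. This count covers the comparisons against the control and leaves out sh3 against sh2. With single tumors left out, the log2 fold change with sh2 ranged from −0.33 to 0.036 for *Pdgfrb*, −0.0028 to 0.40 for *Fap*, −0.12 to 0.23 for *Acta2*, −0.20 to 0.31 for *Postn* and −0.14 to 0.024 for *Fn1*. With sh3 it ranged from −0.52 to 0.16 for *Tagln* and −0.65 to 0.15 for *Fn1*. For the mean of both it ranged from −0.46 to 0.072 for *Fap*, −0.13 to 0.21 for *Tagln* and −0.34 to 0.057 for *Fn1*. Without the 2 tumors highest in muscle markers, the sign changed for *Fn1* with sh2 (0.017), *Tagln* with sh3 (0.19) and *Fap* for the mean of both (0.18).

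The replicate numbers gave no pairing: after group means were removed, same-numbered tumors correlated at −0.10 on average, against 0.05 for tumors with different numbers. With the replicate block, the 10 genes still had 0 calls, and *Postn* with sh2 changed sign (0.058).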
